A study of Mus musculus with 2 samples.

Results

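The genes described here encode the constitutive proteasome, its regulators and its assembly chaperones, in LPS-treated mouse peritoneal macrophages. They were taken by symbol: every listed gene whose mouse symbol begins with Psma to Psmg and a digit, without the immunoproteasome genes Psmb8, Psmb9 and Psmb10 and without symbols that mark pseudogenes. Of 34745 listed genes 54 had such a symbol. Leaving out the 3 immunoproteasome genes and 4 pseudogenes gave 47 members. By their known roles these were 8 genes of the core alpha ring, 8 of the core beta ring, 9 of the base, 8 of the lid, 6 activator and inhibitor genes and 7 chaperone genes. The last member, Psmc3ip, is named for its partner Psmc3 and acts in meiotic recombination, so it is listed apart. Its level was 1.54 FPKM under the knockout label and 1.24 FPKM in the wild type.

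The proteasome is the barrel-shaped protease that degrades ubiquitin-tagged proteins. In its core particle, outer rings of alpha subunits gate the entry and inner rings of beta subunits hold the active sites. A regulatory particle caps the core: its base unfolds substrates with a ring of ATPases, and its lid removes the ubiquitin chain. In macrophages exposed to interferon or LPS, inducible beta subunits can replace the catalytic constitutive ones to form the immunoproteasome, which trims peptides for MHC class I. Subunit genes are known to be raised together by the transcription factor NRF1 (gene Nfe2l1) when proteasome activity is short.

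The 2 libraries were RNA sequencing libraries of C57BL/6 peritoneal macrophages, 1 labelled Kdm2b-/- and 1 labelled wild type. Thioglycollate, an irritant broth, had been injected 4 days before the cells were taken. Both groups received LPS, a bacterial cell-wall lipid, at 100 ng/ml, for 4 h according to the sample characteristics and 3 h according to the treatment protocol. Mouse age, the kind of Kdm2b deletion, the cell types it covers and the number of animals pooled per library were not given in the sources used here. The values are FPKM, fragments scaled by transcript length and by library size, which allows levels of different genes to be set side by side. Since each group is a single library, the spread between animals is unknown. No p-value is given, and every statement describes these libraries.

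Here and below, the value of the library labelled knockout comes first and that of the wild type follows. The estimated depths were 26800000 and 27300000 fragments. Kdm2b, the targeted histone demethylase gene, stood at 0.326 and 0.205 FPKM, about 45 and 29 fragments. The knockout label did not come with a lower level, but both values lay under 1 FPKM. A single value per gene also cannot show whether an exon was deleted. The level therefore speaks neither for nor against the label, and directions below refer to that label and not to a verified genotype. All 8 macrophage markers, Adgre1, Csf1r and Cd68 among them, were past the floor used here, a mean of 1 FPKM, and all 5 T and NK cell markers were listed at 0 in both libraries. The 8 mesothelial and stromal markers, none at 0, summed to 356 and 319 FPKM, of which Dcn alone made up 251 and 248 FPKM. Their median log2 ratio was 0.40, and Col1a1 (16.0 and 3.63 FPKM) and Col3a1 (22.9 and 9.54 FPKM) were over 2-fold higher in the library labelled knockout. Of the 8 markers 6 were higher there and 2 lower, Msln (2.77 and 4.32 FPKM) and Krt19 (12.9 and 16.2 FPKM). Of the erythroid and platelet markers, Pf4 stood at 17.6 and 40.9 FPKM and Ppbp at 0.069 and 0 FPKM. The globin genes Hbb-bs and Hba-a1 were listed at 0 in both libraries. Only Pf4 of this list was past the floor, and whether its difference reflects platelets was not tested. The sum of 5 B cell markers was 1.39 and 8.37 FPKM. The part of such cells in the values below was not tested. In RNA from bulk cells, fewer cells of a type and less RNA per cell cannot be told apart.

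The proteasome genes were close in both libraries, and the core genes stood a little lower in the library labelled knockout. Of the 47 members 45 were past the floor. The comparison used log2 ratios of FPKM + 1, above 0 where a gene was higher in the library labelled knockout. This pseudocount understates the difference of low genes. None of the 45 was 2-fold apart on this scale, against 1.88% of all 9038 genes past the floor (0.863% higher and 1.02% lower). Psmg4 was the 1 member at least 1.5-fold lower (background 2.8%), and 0 were 1.5-fold higher (background 4.7%, and 7.5% in either direction). At 1.2-fold, 9 of 45 were lower (background 12.6%) and 2 were higher (background 28.1%, and 40.6% in either direction). The count of 9 rested on the scale. It was 23 with the all-gene median set to 0, 14 with equal upper quartiles and 3 with equal totals. With the trends over transcript length and GC content removed it was 5. The 12.6% belongs to the deposited scale, and the share of all genes 1.2-fold lower was not counted on the other scales. Below 0 lay 31 of 45, against 36.8% of all genes, and 63.2% of all genes lay above 0. The members below 0 were 35 with the all-gene median set to 0 (50% of all genes). They were 33 with equal upper quartiles (43.0%) and 23 with equal totals (27.7%). The median over the 45 was -0.14, while the median over all genes was 0.10. The members' median stayed below 0 under every scaling of the libraries that was tried, between -0.26 and -0.05. Together the members held 0.679% and 0.740% of the FPKM totals.

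**Figure D1:**
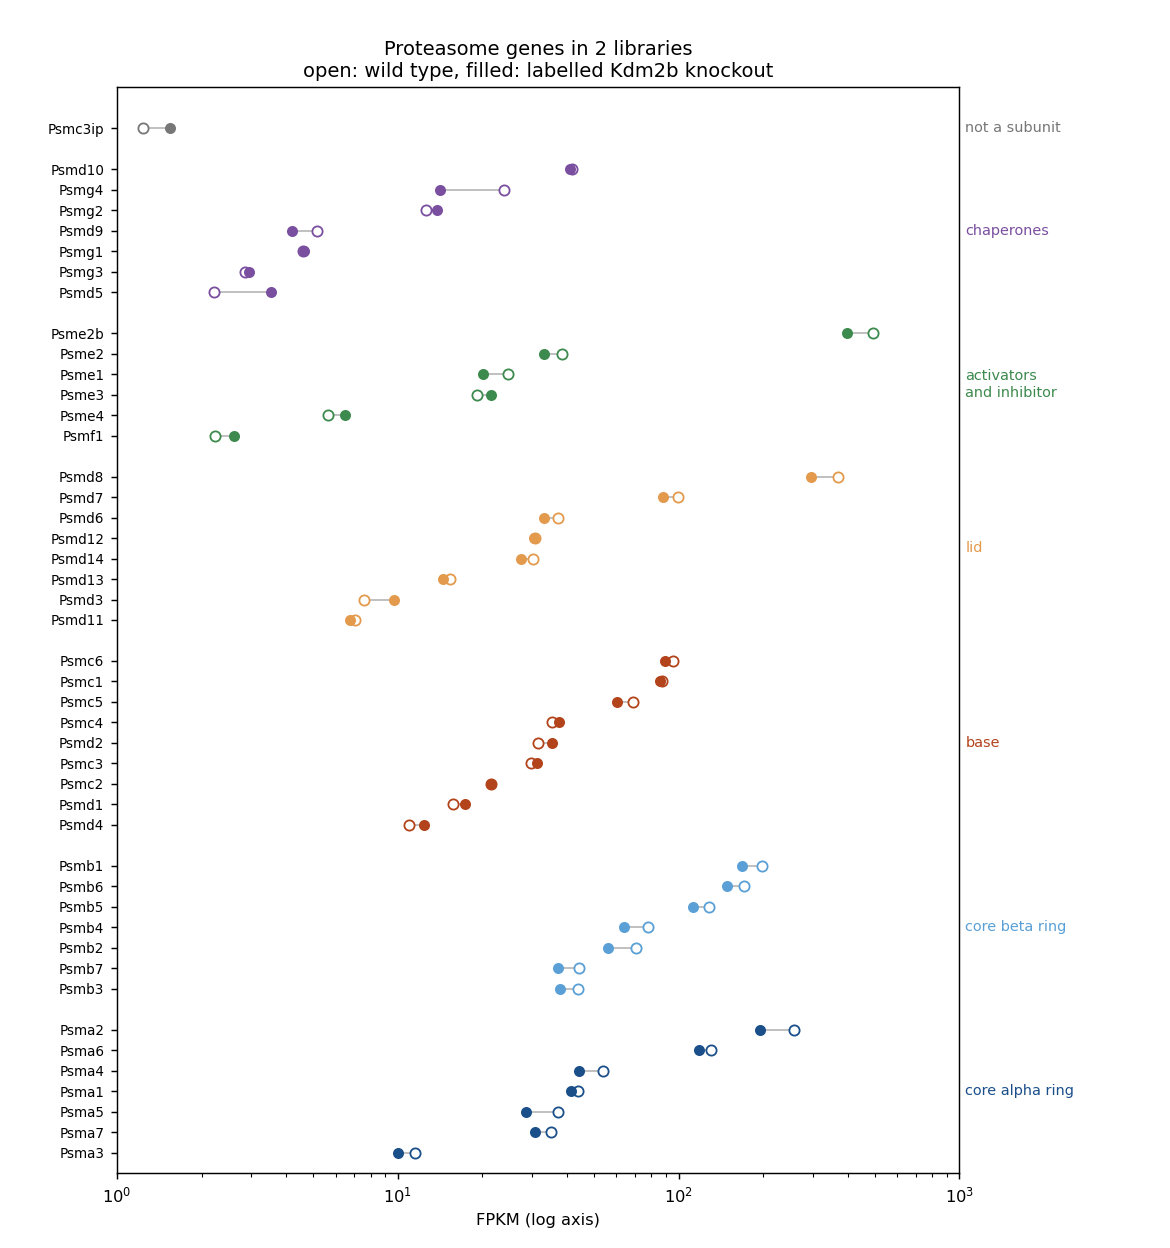
FPKM of the 45 members past the floor on a log axis, in rows by role, with the wild-type library as an open and the library labelled knockout as a filled circle. In every alpha and beta ring row the filled circle lies to the left, and the levels run from 1.24 FPKM for Psmc3ip to 493 FPKM for Psme2b in the wild-type library.

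Counting error was estimated from the FPKM values. Low genes with a single transcript gave FPKM and length products that were whole multiples of a step, within a tolerance of 0.02, in 92.5% and 92.2% of cases. These steps were turned into fragments per gene and into exact Clopper-Pearson 95% intervals of the ratio without a pseudocount. The intervals cover counting error only, and for genes with several transcripts they rest on the longest one. By this measure 24 of 45 members had an interval wholly below 0, against 20.3% of all 9016 genes with a length, and 7 had one wholly above 0, against 43%. The other 14 members past the floor could not be told apart between the libraries at this depth on the deposited scale. All these counts hold for that scale only. Scaling the library labelled knockout, by factors from 0.915 to 1.07 in the alternatives, moves every interval, and the counts were not repeated there. With the principal transcript as length, a choice made after seeing the data, the counts were 24 (18.8% of all genes) and 6 (41.1%).

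The alpha ring genes were all lower in the library labelled knockout, with a median log2 ratio of -0.19 over 7 genes and a range of -0.40 to -0.08, except that Psma1 moved to 0.01 when the libraries were scaled to equal totals. Psma2 stood at 195 and 257 FPKM (log2 ratio -0.40, counting interval -0.43 to -0.37). It lies on chromosome 13, 14613240 to 14674236 in GRCm38 (ENSMUSG00000015671), and was the most abundant alpha gene and the lowest core gene by ratio. It overlaps AW209491 on the same strand. Psma5 stood at 28.5 and 37.1 FPKM (-0.37), and Psma4 at 44.2 and 53.8 FPKM (-0.28). These 3 were the alpha genes past 1.2-fold. Psma7 stood at 30.9 and 35.3 FPKM (-0.19) and Psma3, whose tail helps to close the gate, at 10.0 and 11.5 FPKM (-0.18). Psma6 stood at 118 and 130 FPKM (-0.14). Psma1 was the closest of the ring, at 41.4 and 44.0 FPKM (-0.08), with a counting interval of -0.20 to 0.02 that holds 0.

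Psma8, which replaces Psma7 in the proteasome of spermatocytes, was under the floor. It stood at 0.925 and 0.585 FPKM, about 48 and 31 fragments, and its counting interval of -0.02 to 1.37 holds 0. Psma7 was far above this paralogue in both libraries.

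The beta ring genes lay closer together than those of the alpha ring, all 7 below 0 with a median of -0.23 and a range of -0.32 to -0.19. The 3 catalytic genes differed by nearly the same amount on the deposited scale. Psmb5, of the chymotrypsin-like site, stood at 112 and 128 FPKM (log2 ratio -0.19, interval -0.26 to -0.12). Psmb6, of the caspase-like site, stood at 148 and 171 FPKM (-0.20, interval -0.26 to -0.14). Psmb7, of the trypsin-like site, was the lowest of the 3 in level, at 37.3 and 44.1 FPKM (-0.24, interval -0.31 to -0.17). The counting intervals of these 3 overlap, so their ratios as deposited could not be ordered. With the trends over transcript length and GC content removed, Psmb5 was at -0.09, Psmb6 at -0.02 and Psmb7 at -0.25. With the trend over principal transcript length removed, Psmb5 was at 0.03, Psmb6 at 0.02 and Psmb7 at -0.10.

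The 4 beta genes without an active site ran from -0.32 to -0.21. As deposited, Psmb2 and Psmb4 lay below all 3 catalytic genes, but their counting intervals (-0.43 to -0.22 and -0.36 to -0.19) overlap those of the 3. With length and GC removed Psmb2 was at -0.05 and Psmb4 at -0.11, both above Psmb7 at -0.25. Psmb2 stood at 56.1 and 70.3 FPKM (-0.32) and Psmb4 at 64.1 and 77.7 FPKM (-0.27), and both were past 1.2-fold. Psmb1, the most abundant of the ring, stood at 168 and 197 FPKM (-0.23), and Psmb3 at 37.9 and 44.0 FPKM (-0.21). Psmb11, the beta subunit of thymic epithelium, was listed at 0 in both libraries. Over the 14 core genes past the floor the median was -0.22, a difference of -14.1% on the FPKM + 1 scale. Psmb5 lies on chromosome 14, 54614119 to 54618022 (ENSMUSG00000022193), and Psmb6 on chromosome 11, 70525367 to 70527858 (ENSMUSG00000018286).

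The base genes did not share this direction. Their median was 0.07 over 9 genes, 5 above 0 and 4 below, with a range of -0.18 to 0.16. It turned to -0.05 when the libraries were scaled to a median log2 ratio of 0 over all genes, and to -0.02 with the trend over principal transcript length removed. None of the 9 was past 1.2-fold. The ATPase genes Psmc1 to Psmc6 thread substrates into the core. Psmc1 stood at 86.1 and 87.3 FPKM (-0.02), Psmc2 at 21.4 and 21.4 FPKM (0.00 to 2 decimals), Psmc3 at 31.4 and 29.8 FPKM (0.07) and Psmc4 at 37.4 and 35.3 FPKM (0.08). The counting intervals of these 4 hold 0. Psmc5 stood at 60.5 and 68.7 FPKM (-0.18, interval -0.26 to -0.10) and Psmc6 at 89.5 and 95.3 FPKM (-0.09, interval -0.14 to -0.04). Those 2 were the ATPase genes with an interval below 0, though Psmc6 moved to 0.00 with equal totals.

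The non-ATPase genes of the base were all higher in the library labelled knockout. Psmd1, a scaffold, stood at 17.4 and 15.8 FPKM (0.13). Psmd2, the scaffold that also binds ubiquitin-like domains, stood at 35.3 and 31.5 FPKM (0.16), and the ubiquitin receptor gene Psmd4 at 12.4 and 11.0 FPKM (0.16). With the all-gene median set to 0 these 3 lay between 0.01 and 0.04 on the log2 scale. Psmd1 turned to -0.01 with length and GC removed and to -0.05 with principal length removed. It overlaps other annotated genes on the same strand.

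On the deposited scale the lid genes fell between core and base, with a median of -0.11 over 8 genes. They had the widest spread of the subunit groups, from -0.32 to 0.32. The lid median was -0.05 with length and GC removed. With principal length removed it was -0.10, no higher than the core median of -0.10. Psmd8 was the most abundant lid gene, at 297 and 371 FPKM (-0.32, interval -0.35 to -0.29). It was second in level among all members (ENSMUSG00000030591, chromosome 7, 29174188 to 29180701). Psmd7, the partner of the deubiquitinase, stood at 87.9 and 99.2 FPKM (-0.17), and Psmd14, the deubiquitinase that cuts the ubiquitin chain off the substrate, at 27.4 and 30.3 FPKM (-0.14). Psmd6 stood at 33.1 and 37.3 FPKM (-0.17). The scaffold genes Psmd12 (30.6 and 30.8 FPKM, -0.01), Psmd13 (14.5 and 15.4 FPKM, -0.08) and Psmd11 (6.78 and 7.05 FPKM, -0.05) had intervals that hold 0, and all 3 lay above 0 with equal totals. Psmd3 went against the rest of the lid, at 9.69 and 7.57 FPKM (0.32, interval 0.20 to 0.51). It was 1 of the 2 members past 1.2-fold higher (ENSMUSG00000017221, chromosome 11, 98682554 to 98695979). Psmd3 was under 1.2-fold with the all-gene median set to 0 (0.20) and with length and GC removed (0.15), and at 0.40 with equal totals.

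**Figure D2:**
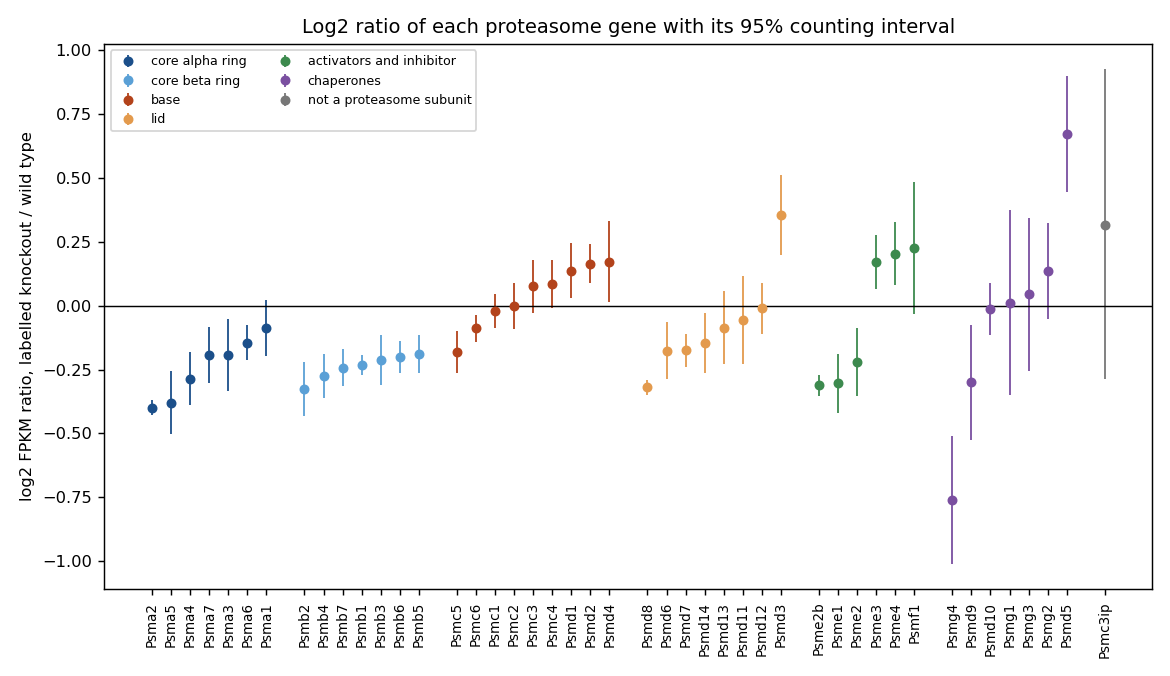
Log2 ratio of FPKM without a pseudocount for each member past the floor (vertical axis), ordered within its role, with bars for the 95% counting interval. All 14 core genes lie below 0, base genes straddle it, and Psmg4 and Psmd5 mark the ends.

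Core and base genes overlapped little on the deposited scale. Of 14 core genes 11 lay below the lowest base gene, Psmc5, and all 14 lay below the base median. Of 9 base genes 7 lay above the highest core gene, Psma1. Of 8 lid genes 1, Psmd8, lay below the lowest base gene and 4 above the highest core gene. Over all genes 63.2% lay above 0 and 36.8% below 0, and the all-gene median of 0.10 lay above the base median of 0.07. The shares of all genes past Psmc5, Psma1 and the base median were not counted, so these counts have no background beside them. The core median was 0.29 log2 units under the base median. Summed over members, the core held 0.290% and 0.324% of the FPKM totals and the base and lid 0.238% and 0.247%.

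Transcript length moved with these ratios. Over all genes, the median log2 ratio was -0.23 among the shortest 902 genes, of 132 to 1200 bases, and 0.29 among the 902 longest, of 6249 to 123179 bases. The core genes had a median longest transcript of 1220 bases, the base genes 2120 and the lid genes 1969. Over the 45 members the log2 ratio went with log2 length at a Pearson r of 0.59 and a Spearman rho of 0.50, as a description across genes that share 2 libraries. Over all 9016 genes with a length these were 0.41 and 0.46. The members' ratio also went with their mean level, at a Spearman rho of -0.60.

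With the trend over length and GC content removed, the core median was -0.13 and the base median 0.02. Below 0 then lay 12 of 14 core genes and 4 of 9 base genes, against 49.9% of all genes. Of the core genes 9 lay below the lowest base gene. With the trend over the length of the principal transcript removed, an alternative added after seeing the data, the core median was -0.10 and the base median -0.02. Then 10 of 14 core genes lay below 0 (49.9% of all genes) and 4 below the lowest base gene. The share of all genes below the lowest base gene was not counted on either scale. The gap between the medians was -0.29 as deposited, -0.15 with length and GC removed and -0.08 with principal length removed. The gap kept its direction in each and was smaller with a trend removed.

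**Figure D3:**
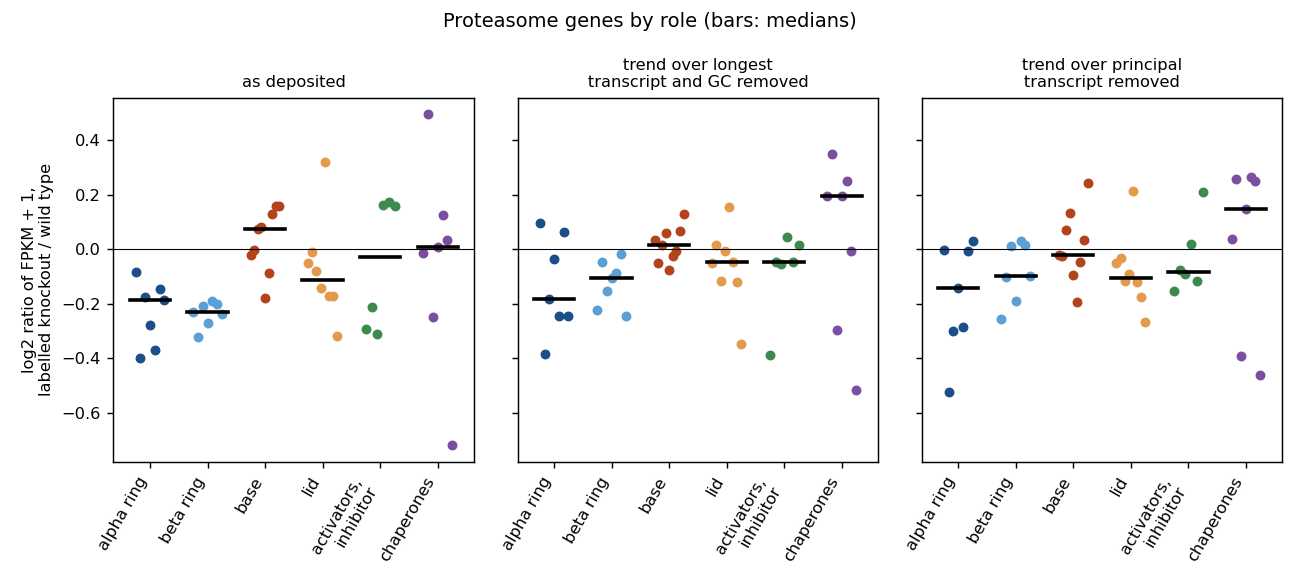
Log2 ratio of FPKM + 1 for the 44 proteasome genes past the floor by role (points) with the median (bar), as deposited and with either trend removed. The beta ring median moves from -0.23 to -0.11 and -0.10, and the alpha ring median from -0.19 to -0.18 and -0.14. The base median moves from 0.07 to 0.02 and -0.02, and the lid median from -0.11 to -0.05 and -0.10.

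Some core genes lay below genes of like length. Psma2 was the plainest case: the genes in its length bin had a median of 0.10, and its own ratio with length and GC removed was -0.39. Psma5 (-0.24), Psma7 (-0.24), Psmb7 (-0.25), Psmb1 (-0.22) and Psma3 (-0.18) followed on this scale. With the principal transcript of 914 bases in place of the longest of 1515, Psma7 turned to 0.03. Psmb7, with 1160 bases in place of 2849, moved to -0.10. For Psma2, Psma3 and Psma5 the principal transcript is also the longest, so only the genes they were set against changed. Psma2 (-0.52), Psma3 (-0.30), Psma5 (-0.28) and Psmb1 (-0.26) kept their side. In contrast Psma1 (0.10) and Psma6 (0.06) lay above 0 with length and GC removed, and within 0.01 of 0 with principal length removed. Psmb2, the lowest beta gene as deposited, was at -0.05, and its length bin had a median of -0.27.

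**Figure D4:**
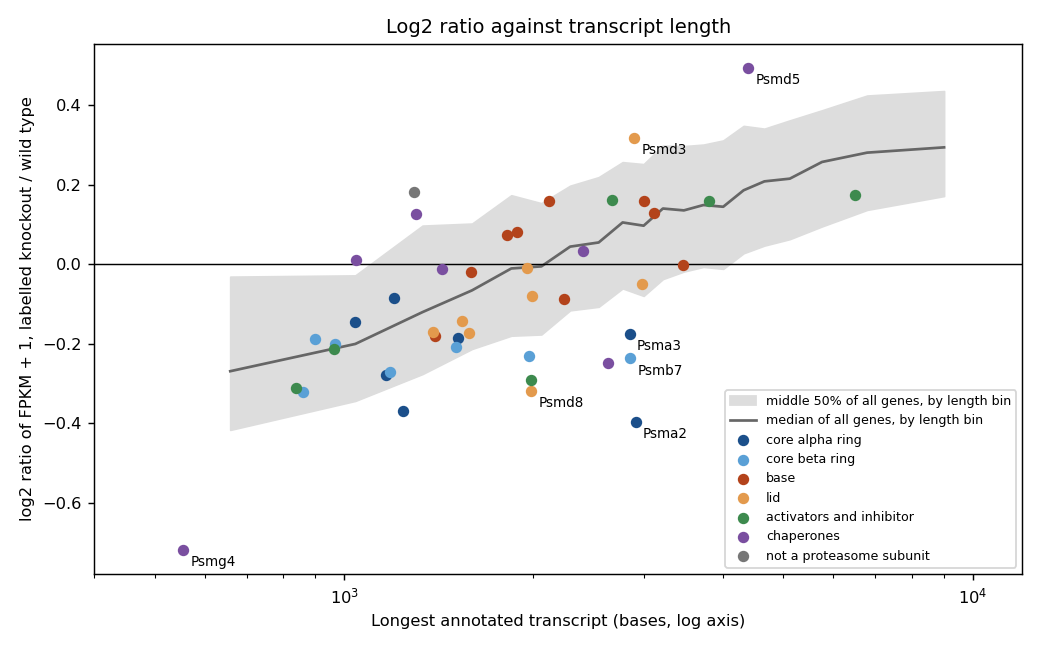
Log2 ratio of FPKM + 1 (vertical axis) against the longest annotated transcript on a log axis for members past the floor (points by role), with the median (line) and the middle 50% (band) of all genes in 20 length bins. Of the 10 core genes of up to 1900 bases 9 lie within the band of their bin and Psma5 under it, and the 4 longer ones, Psma2, Psma3, Psmb1 and Psmb7, all lie under it.

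Promoter windows of 300 bases were found in the RefSeq table (GRCm38.p6) for 39 members, 42 windows in all, each from 250 bases before to 50 after the start of the gene. Entries were missing for Psma8, Psmb1, Psmb2, Psmb7, Psmc3, Psmd3, Psmd7 and Psmg2. Windows are shown as examples for the core gene with the lowest ratio, a pair of catalytic genes, an ATPase gene and a lid gene. The counting intervals of that ATPase gene, Psmc1, and that lid gene, Psmd12, hold 0. Capitals mark matches to the motifs named below, and each sequence is read along the strand of its gene.
Psma2, chr13:14612992-14613291, plus strand: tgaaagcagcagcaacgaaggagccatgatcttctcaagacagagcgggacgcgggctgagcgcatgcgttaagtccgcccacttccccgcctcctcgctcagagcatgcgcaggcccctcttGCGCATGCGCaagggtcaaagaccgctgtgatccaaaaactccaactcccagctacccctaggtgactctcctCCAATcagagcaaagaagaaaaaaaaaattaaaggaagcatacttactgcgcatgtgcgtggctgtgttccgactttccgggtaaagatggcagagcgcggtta
Psmb5, chr14:54617946-54618245, minus strand: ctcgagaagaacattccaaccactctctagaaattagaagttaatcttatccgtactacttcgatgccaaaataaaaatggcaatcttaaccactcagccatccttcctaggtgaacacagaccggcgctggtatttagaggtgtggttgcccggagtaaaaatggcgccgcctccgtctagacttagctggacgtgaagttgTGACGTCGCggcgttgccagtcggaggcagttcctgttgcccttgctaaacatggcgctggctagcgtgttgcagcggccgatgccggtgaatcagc
Psmb6, chr11:70525107-70525406, plus strand: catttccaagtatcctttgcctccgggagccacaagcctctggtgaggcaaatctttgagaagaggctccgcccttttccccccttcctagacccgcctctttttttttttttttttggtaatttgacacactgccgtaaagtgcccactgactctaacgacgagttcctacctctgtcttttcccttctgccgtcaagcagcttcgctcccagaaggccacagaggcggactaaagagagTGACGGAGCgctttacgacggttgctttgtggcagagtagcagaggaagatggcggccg
Psmc1, chr12:100109952-100110251, plus strand: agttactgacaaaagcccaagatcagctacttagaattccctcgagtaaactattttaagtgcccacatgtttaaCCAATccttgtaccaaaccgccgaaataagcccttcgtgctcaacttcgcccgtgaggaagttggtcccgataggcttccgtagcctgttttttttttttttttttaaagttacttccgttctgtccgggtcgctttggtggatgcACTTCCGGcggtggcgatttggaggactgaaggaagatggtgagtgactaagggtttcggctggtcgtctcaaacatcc
Psmd12, chr11:107479278-107479577, plus strand: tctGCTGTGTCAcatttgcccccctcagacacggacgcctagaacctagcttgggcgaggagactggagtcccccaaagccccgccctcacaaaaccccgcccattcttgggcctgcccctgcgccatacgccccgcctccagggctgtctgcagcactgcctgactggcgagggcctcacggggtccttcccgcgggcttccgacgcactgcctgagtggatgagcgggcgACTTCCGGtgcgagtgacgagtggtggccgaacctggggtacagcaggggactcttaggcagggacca

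Motifs were searched on both strands, as letters only. The antioxidant response element core TGACNNNGC, the type of site NRF1 (Nfe2l1) and NRF2 bind, was in 6 of 42 member windows (14.3%) and in 12.4% of all 32851 windows of the table. Those 6 were the windows of Psmb5, Psmb6, Psmc6, Psmd12, Psmd9 and Psme4. Psmb5 has TGACGTCGC from -47 to -39 and Psmb6 TGACGGAGC from -9 to -1, counted from the start of the gene. An ETS type motif, ACTTCCGG, was in 10 member windows (23.8%) and in 3.89% of all windows. It was in 3 of 9 windows of the base, 3 of 6 of the lid, 2 of 7 of activators and inhibitor, 1 of 6 of the chaperones, 1 of 8 of the alpha ring and 0 of 5 of the beta ring, where 3 genes have no window. In Psmc1 it lies from -29 to -22 and in Psmd12 from -18 to -11.

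The motif of nuclear respiratory factor 1, a factor other than that of Nfe2l1, was in 7 member windows (16.7%) and in 4.60% of all windows. Of these 3 were among the 8 alpha ring windows, those of Psma2, Psma3 and Psma4, and 0 among the 5 beta ring windows. In Psma2 it lies from -127 to -118. Among the 8697 windows of protein-coding genes past the floor, the shares were 14.8% for the antioxidant response element core, 9.28% for the ETS type and 10.8% for the nuclear respiratory factor motif. The CCAAT box was in 14 member windows (33.3%, against 37.4% of all windows), 5 of them among the 8 of the alpha ring. The cyclic AMP response element TGACGTCA was in 0 member windows, against 1.79% of all windows. A match is a description of these letters. The 7 members with the nuclear respiratory factor motif ran from -0.40 (Psma2) to 0.08 (Psmc4), and whether a motif goes with a ratio was not tested.

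The activator and inhibitor genes split, 3 above 0 and 3 below, with a median of -0.03 that turned to 0.05 with equal totals. The genes of the interferon-inducible cap, Psme1 and Psme2, were lower in the library labelled knockout, Psme1 at 20.1 and 24.8 FPKM (-0.29) and Psme2 at 33.0 and 38.5 FPKM (-0.21). Psme3, of the related nuclear cap, was higher at 21.5 and 19.1 FPKM (0.16), as was Psme4, a large single-chain activator, at 6.51 and 5.65 FPKM (0.17). Psmf1, which encodes the inhibitor PI31, stood at 2.61 and 2.23 FPKM (0.16), with an interval of -0.03 to 0.49 that holds 0. With the all-gene median set to 0, Psme3, Psme4 and Psmf1 lay between 0.04 and 0.07 on the log2 scale. With length and GC removed Psme1 was at -0.39, and the other 5 genes of the group lay between -0.05 and 0.05. With principal length removed Psme1 was at -0.15.

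Psme2b, a copy of Psme2 on chromosome 11 (48945354 to 48946190, ENSMUSG00000078153), had the highest level of all members, at 397 and 493 FPKM (-0.31). Its coding sequence and that of Psme2 are both 720 bases long and differ at 5 bases, an identity of 99.3%. Of the 50-base words of the longest Psme2 transcript 59.3% also occur in Psme2b, and 68.7% of those of Psme2b in Psme2. Psme2b also overlaps 9930111J21Rik1 on the same strand. Fragments could therefore have been assigned to either gene, and the level of each is uncertain. The stretch of the coding sequence from base 454 to base 543 holds 3 of the 5 differences, in capitals, and shows how little tells these genes apart.
Psme2: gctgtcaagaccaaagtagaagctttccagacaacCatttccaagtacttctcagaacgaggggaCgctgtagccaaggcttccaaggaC
Psme2b: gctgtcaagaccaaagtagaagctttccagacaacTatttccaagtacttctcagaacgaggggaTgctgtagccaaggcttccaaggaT

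Shared sequence touched other members as well. Of the 45 members past the floor 11 share more than 10% of their 50-base words with a transcript of another annotated gene, and 22 share none. Psmb5 shares 57.1%, mostly with Gm3375, and Psma5 55.4%, of which 37.2% with Gm8394, a gene on chromosome 10 (85313488 to 85314439). Gm8394 itself was listed at 30.8 and 41.6 FPKM (-0.42), next to 28.5 and 37.1 FPKM for Psma5. Psma4 shares 31.5% and Psma3, the lowest alpha gene in level, 22.0%. The levels of these members are uncertain for that reason. The 9 core genes that share at most 10% had a median log2 ratio of -0.23, against -0.22 for all 14.

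The chaperone genes, whose products assemble the particle and do not remain in it, held both ends of the range. Psmg4, of a chaperone pair that helps to build the alpha ring, stood at 14.1 and 23.8 FPKM, about 209 and 360 fragments (log2 ratio -0.72, interval -1.01 to -0.51). It lies on chromosome 13, 34162964 to 34178173 (ENSMUSG00000071451), and with 555 bases has the shortest transcript of all members. With length and GC removed its ratio was -0.52, with length alone -0.45 and with principal length -0.46, none of them 1.5-fold. In the last 2 of these Psma2 was lower than Psmg4. Its partner Psmg3 stood at 2.94 and 2.85 FPKM (0.03). Psmg1 and Psmg2, the other alpha ring chaperone pair, stood at 4.65 and 4.61 FPKM (0.01) and 13.8 and 12.6 FPKM (0.13). The counting intervals of these 3 hold 0.

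Psmd5, a chaperone of the base, was the highest member by ratio, at 3.53 and 2.22 FPKM, about 417 and 266 fragments (0.49, interval 0.45 to 0.90 without a pseudocount). It lies on chromosome 2, 34849734 to 34874968 (ENSMUSG00000026869). Its ratio was 0.35 with length and GC removed. Psmd9, another base chaperone, was lower, at 4.20 and 5.17 FPKM (-0.25, interval -0.53 to -0.08), and Psmd10, known as gankyrin, was level at 41.2 and 41.6 FPKM (-0.01). The median of the 7 chaperone genes was 0.01. It turned to -0.09 with the all-gene median set to 0, to -0.04 with equal upper quartiles and to -0.01 at a floor of 5 FPKM, and was 0.19 with length and GC removed.

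Members of 1 complex were not at 1 level in either library. In the wild-type library the highest alpha gene past the floor was 22.4 times the lowest, in FPKM. For the beta ring this was 4.49 times, for the 6 ATPase genes 4.45 times and for the lid 52.6 times. The order of levels was nearly the same in both libraries (Spearman rho 0.99 over 45 members, a description across genes). Psme2b, Psmd8, Psma2, Psmb1, Psmb6, Psma6 and Psmb5 were the 7 highest in each. Below them neighbours in the order were close, and Psmd7 and Psmc6 changed places. The beta ring had the highest median level, 64.1 and 77.7 FPKM, and the chaperones the lowest of the 6 roles, 4.65 and 5.17 FPKM.

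On the deposited scale the immunoproteasome genes were lower in the library labelled knockout, as were the constitutive genes they replace. With length and GC removed Psmb10 was at -0.46, Psmb8 at -0.39 and Psmb9 at -0.34. On that scale Psmb7 was at -0.25, but Psmb5 was at -0.09 and Psmb6 at -0.02. As deposited, the levels were as follows. Psmb10 stood at 131 and 183 FPKM (-0.48), Psmb8 at 63.4 and 81.9 FPKM (-0.36) and Psmb9 at 10.4 and 11.9 FPKM (-0.18). Per length, Psmb10 was 3.50 and 4.14 times the level of Psmb7, Psmb8 0.564 and 0.639 times that of Psmb5, and Psmb9 0.0700 and 0.0698 times that of Psmb6.

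Other genes of the ubiquitin-proteasome pathway were taken from a list of 36 found symbols, of which 35 were past the floor. By the rules above 0 were 2-fold apart and 1 was at least 1.5-fold higher, Ubqln2, with 0 at least 1.5-fold lower. At 1.2-fold 12 were higher and 4 lower, next to a background of 28.1% and 12.6% of all genes. The median was 0.04. The 4 lower genes were Psmb8, Psmb10, Pomp and Sem1. Pomp, the chaperone of beta ring maturation, stood at 15.3 and 23.0 FPKM (-0.56) and had a ratio of -0.70 with length and GC removed. Sem1, a small lid subunit outside the symbol rule, stood at 45.3 and 57.7 FPKM (-0.34). The ubiquitin receptor gene Adrm1 stood at 3.47 and 3.37 FPKM (0.03).

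Nfe2l1, which encodes the transcription factor NRF1, stood at 6.12 and 4.00 FPKM (0.51), and Ddi2, the protease that activates it, at 1.49 and 0.849 FPKM (0.43). With length and GC removed these were 0.24 and 0.14. The other 3 genes of the transcription group were Nfe2l2 (0.12), Ngly1, which deglycosylates NRF1 (0.05), and Bach1, a repressor at antioxidant response elements (-0.19, and -0.45 with length and GC removed). The median of the 5 was 0.12, and 0.07 with length and GC removed. Shuttle factors, which carry ubiquitin-tagged proteins to the proteasome, stood with a segregase in a group of 8 genes. Of these 6 lay above 0 (63.2% of all genes) and 5 were past 1.2-fold higher (28.1% of all genes). With length and GC removed 1 of the 8, Ubqln2, was past 1.2-fold. Ubqln2 stood at 4.04 and 2.26 FPKM (0.63), Ubqln4 at 4.24 and 2.97 FPKM (0.40), and Vcp, the segregase, at 32.4 and 26.7 FPKM (0.27). The group's median was 0.29, and 0.12 with length and GC removed. The 9 genes of proteasome-bound deubiquitinases, ligases and partners had a median of 0.04, and -0.06 with length and GC removed, with 5 above 0 and 4 below. They ran from the deubiquitinase gene Uchl5, at 3.86 and 4.78 FPKM (-0.25), to the ligase gene Ube3c, at 3.42 and 2.18 FPKM (0.47).

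**Figure D5:**
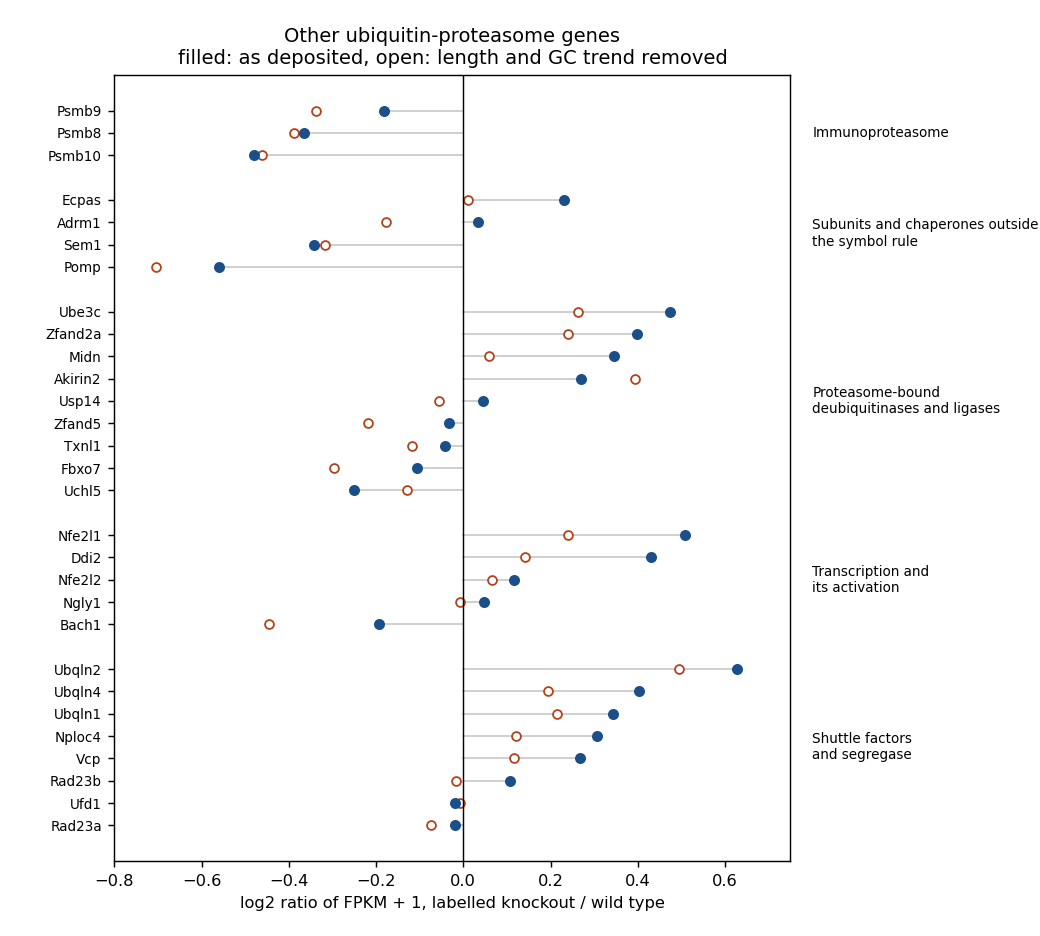
Log2 ratio of FPKM + 1 for other genes of the ubiquitin-proteasome pathway past the floor by group, without those of ubiquitin and its activating enzymes, as deposited (filled) and with the trend over length and GC content removed (open). Psmb8, Psmb9, Psmb10, Sem1 and Pomp lie below 0 on both scales, and 5 of the 8 shuttle and segregase genes lie above 0 on both.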

How the data were processed

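RNA was measured in 2 libraries, 1 a group. The authors deposited 1 FPKM value per Ensembl gene and library, per the file headers. HISAT2 2.0.4, StringTie 1.3.0, edgeR and the builds GRCm38.p4 and mm10 appear in the submitters' processing notes. Tool roles, annotation and filters were not given in the sources used here. No strand marking is described in the labels' protocols, so reads of overlapping genes could not be told apart by strand. FPKM depends on gene length and on the most abundant genes.

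Symbols, coordinates, transcript lengths and GC content came from GENCODE M21 (GRCm38), which gave no symbol for 401 listed IDs. Log2 ratios used a pseudocount of 1 FPKM and a floor, a mean over both libraries of 1 FPKM. Trends were removed by subtracting medians in 20 bins of length and then of GC content. The principal transcript is the shortest that GENCODE tags as APPRIS principal, or the longest where none is tagged. Roles, other pathway genes, motifs and cell markers were lists; members and lists were chosen with earlier results of these data known. Every member may be named; of the other pathway genes, the rule named immunoproteasome genes, Pomp, Nfe2l1 and up to 4 in each direction, and any other was picked with its value known. Single values of some listed genes are not reported here. Step finding, fold calls, counting intervals and trend removal were tested on simulated data. Python 3.11.15, pandas 2.3.3, NumPy 2.4.6, SciPy 1.17.1, Biopython 1.88 and matplotlib 3.10.9 were used.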

Additional observations from a re-analysis of the deposited data

How the results depend on the processing

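The alternatives gave 192 values of the counts and medians above, of which 161 were taken as unchanged. A median was so taken if it moved no further than the typical distance from the middle to an end of a member's counting interval. A count was so taken if it changed by no more than 1.5 times. That rule passed the fall in members below 0 from 31 to 23 with equal totals. The 2-fold counts, 0 in every alternative, are among the 161. The share of all genes past 1.5-fold or 1.2-fold was not counted under the alternatives, so the fold counts below have no background beside them. With a pseudocount of 0.1 the members at least 1.5-fold higher were 1, and with one of 5 those 1.2-fold higher were 0. Scaled to a median log2 ratio of 0 over all genes, 1 member was 1.2-fold higher and 23 lower, and the medians were -0.26 for all members, -0.35 for the core, -0.31 for the alpha ring, -0.36 for the beta ring, -0.051 for the base, -0.23 for the lid and -0.15 for activators and inhibitor. With equal upper quartiles 14 members were 1.2-fold lower; with equal totals 3 were, and the beta ring was at -0.14 and the base at 0.16. At a floor of 5 FPKM 1 member was 1.2-fold higher and activators and inhibitor were at -0.21, with fewer genes entering. With length and GC removed 0 members were 1.5-fold lower and 5 were 1.2-fold lower, the beta ring was at -0.11 and the gap between core and base at -0.15. With length alone removed 0 were 1.5-fold lower, the core was at -0.10, the beta ring at -0.072 and the gap at -0.15. With principal length removed 0 were 1.5-fold lower, the core and the beta ring were at -0.10, the base at -0.021 and the gap at -0.079. Leaving out the 11 members that share over 10% of their words with another gene, which takes out Psme2 and Psme2b, put activators and inhibitor at 0.16. The last 2 alternatives were added after seeing the data; for the other values the cause was not tested. The core medians were below 0 in all of these. No paired analysis was possible because each group has 1 library, and no replicate could be left out.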
